A study of Mus musculus with 4 samples.

Results

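The Myc-Max network was represented by 10 genes, *Myc*, *Mycn*, *Mycl1*, *Max*, *Mxd1*, *Mxd3*, *Mxd4*, *Mxi1*, *Mnt* and *Mlx*, chosen by name from 21895 named loci, and each had 1 row in the table. Poly(A) RNA-Seq was performed on whole mammary gland of 4 virgin mice of a mixed 129SV::FVB/N::C57BL/6 background, 2 wild-type mice (*miR-21*+/+) and 2 mice lacking *miR-21* (*miR-21*-/-), labelled as 2 months old. The study compared the genotypes to look for transcripts controlled by miR-21. Levels are FPKM (fragments mapped, scaled to exon length in kilobases and to library size), estimated by the authors as 1 value per genotype from both mice. How far the mice of a genotype vary cannot be seen from it, no test was made, and every difference below is a difference between 2 pooled values without a replicate check.

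MYC, MYCN and L-MYC, the product of *Mycl1*, are basic helix-loop-helix leucine zipper proteins that bind the E-box CACGTG as pairs with MAX and mostly activate transcription of genes for ribosome production, metabolism and the cell cycle. The MXD proteins, MXI1 and MNT compete for MAX and repress the same sites through SIN3 corepressors, while MLX links the network to the glucose-sensing Mondo proteins. In the mammary gland, MYC is known for its part in epithelial proliferation and in tumors. L-MYC was first known from lung cancer and is also known as a factor of dendritic cells. MicroRNAs such as miR-21 pair through bases 2 to 8, the seed, with sites in the 3′ UTR of mRNAs and lower their stability or translation.

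The sequences that bear on the comparison are miR-21 itself and its seed matches in the network. The RefSeq set searched here (GRCm38.p6) held 2 mature mouse microRNAs with the miR-21 seed, shown in capitals, and a relative, miR-21b, with another seed. Other collections, which may hold further microRNAs with this seed, were not searched.
mmu-miR-21a-5p: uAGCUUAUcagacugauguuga
mmu-miR-21c: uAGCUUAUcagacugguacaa
mmu-miR-21b: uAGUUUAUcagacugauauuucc
Each of the 10 members had an annotated 3′ UTR in the GENCODE annotation of mm9, and 2 of them held a match to bases 2 to 8 of the seed, *Mycl1* and *Mxd4*. Both matches are 7mer-m8 sites, which pair with all of the seed but lack an A after it. The sites are given below on the transcript strand, with the bases that pair with the seed in capitals.
*Mycl1* (chr4:122679441-122679462, plus strand): atggcttgtgttttATAAGCTg
*Mxd4* (chr5:34518673-34518694, minus strand): ggcagaggactggaATAAGCTg
The *Mycl1* site begins at base 1697 of a 3′ UTR of 1970 nt, near its end, and is the site that the study's target prediction aligned with miR-21. The *Mxd4* site begins at base 961 of a 3′ UTR of 3105 nt. Adding 7mer-A1 sites, which pair with bases 2 to 7 and have an A after them, gave no site in another member, nor did the other annotated transcripts of these genes. Among the 12835 genes with a mean of at least 1 FPKM and an annotated 3′ UTR, 6.95% held an 8mer or 7mer-m8 site.

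*Mycl1* was the member that differed most between the genotypes. The study had picked it as a putative miR-21 target from genes more than 2-fold higher in *miR-21*-/- tissue in these same data. That it passes 2-fold here therefore follows from that choice. The level of *Mycl1* was 4.56 FPKM in *miR-21*+/+ and 9.86 FPKM in *miR-21*-/- tissue, a 2.17-fold difference and a log2 ratio of 1.11 (*miR-21*-/- over *miR-21*+/+, without a pseudocount). The gene lies on chromosome 4 of mm9 from 122673187 to 122679902, and its longest annotated coding transcript has 2 exons and 3501 nt. *Mycl1* was the only one of the 9 members with a mean of at least 1 FPKM to differ by 2-fold or more, and also the only one at 1.5-fold or more. Of all 13096 named loci with such a mean, 3.85% differed by 2-fold or more in either direction and 10.8% by 1.5-fold or more. At 2-fold or more, 1.71% were higher and 2.14% lower in *miR-21*-/- tissue, and at 1.5-fold or more 4.99% were higher and 5.77% lower. A log2 ratio as high as that of *Mycl1* or higher was seen at 180 of these loci (1.37%). Among the 2958 loci with a mean from 5 to under 10 FPKM, the range in which *Mycl1* lies, it was seen at 27 (0.913%).

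**Figure D1:**
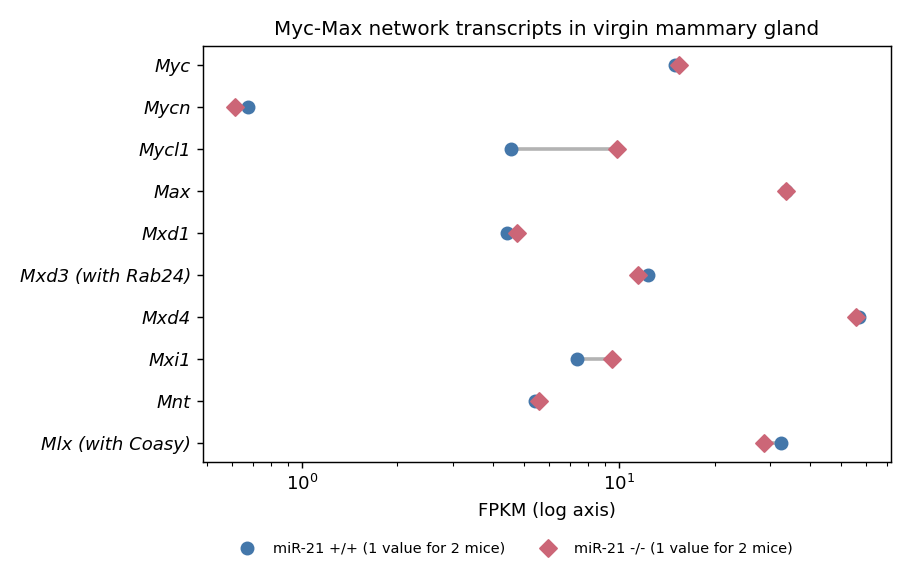
FPKM of each member in *miR-21*+/+ (circles) and *miR-21*-/- tissue (diamonds) on a log axis, with 1 value per genotype from 2 mice and no error bars. *Mycl1* moves from 4.56 to 9.86 and *Mxi1* from 7.38 to 9.52, and the other pairs of symbols nearly coincide.

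The other MYC genes lay close together in the genotypes. *Myc*, which encodes the founding member of the family, was at 15.0 FPKM in *miR-21*+/+ and 15.5 FPKM in *miR-21*-/- tissue, a log2 ratio of 0.05. *Mycn*, best known from embryonic and neural tissue, was at 0.674 and 0.613 FPKM, a log2 ratio of −0.14, and was the member with a mean under 1 FPKM. *Myc* was thus the most abundant of the MYC genes in both genotypes, with 3.28 times the FPKM of *Mycl1* in *miR-21*+/+ and 1.57 times in *miR-21*-/- tissue. *Mycl1* made up 22.6% of the summed FPKM of the 3 MYC genes in *miR-21*+/+ and 38.0% in *miR-21*-/- tissue. That sum was 20.2 and 26.0 FPKM, and without *Mycl1* it was 15.6 and 16.1 FPKM.

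*Max*, the partner that the MYC and MXD proteins share, was nearly identical in the genotypes, at 33.6 and 33.7 FPKM with a log2 ratio of 0.0019. Its FPKM was above the sum of the 3 MYC genes in both, 1.67 times that sum in *miR-21*+/+ and 1.30 times in *miR-21*-/- tissue.

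Among the genes for repressors, *Mxi1* differed most, at 7.38 FPKM in *miR-21*+/+ and 9.52 FPKM in *miR-21*-/- tissue. This is 1.29-fold with a log2 ratio of 0.37, a ratio reached or exceeded by 9.22% of the named loci, and it turns to −0.26 when both columns are scaled to equal sums over all loci. *Mxi1* lies on chromosome 19 from 53384996 to 53450300, and no miR-21 seed match was found in its 3′ UTR of 4074 nt. *Mxd4*, which carries the other seed match, was the most abundant member, at 57.2 FPKM in *miR-21*+/+ and 55.9 FPKM in *miR-21*-/- tissue. Its log2 ratio was −0.03, against 1.11 for *Mycl1* with the same 7 bases and the same base after them. *Mxd1* was at 4.44 and 4.75 FPKM, a log2 ratio of 0.10. *Mnt*, whose product also represses MYC sites with MAX, was at 5.42 and 5.60 FPKM, a log2 ratio of 0.05. Summed, *Mxd1*, *Mxd4*, *Mxi1* and *Mnt* amounted to 74.4 FPKM in *miR-21*+/+ and 75.8 FPKM in *miR-21*-/- tissue. Relative to the sum of the MYC genes, this was 3.69 times and 2.92 times. FPKM compares transcript levels per length, so these proportions say nothing of the proteins.

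*Mxd3* and *Mlx* could not be read on their own. The table merges *Mxd3* with *Rab24*, a gene for a small GTPase, and this row was at 12.3 FPKM in *miR-21*+/+ and 11.4 FPKM in *miR-21*-/- tissue, a log2 ratio of −0.11. It merges *Mlx* with *Coasy*, which encodes coenzyme A synthase, and that row was at 32.3 and 28.7 FPKM, a log2 ratio of −0.17. In each case the reads of both genes are in 1 value.

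The log2 ratios of the 9 members other than *Mycl1* ran from −0.17 to 0.37 with a median of 0.0019, and *Mycl1* lay 0.75 above the next member. In 8 of the 10 members the log2 ratio was within 0.2 of 0, as it was in 61.6% of the named loci with a mean of at least 1 FPKM, whose median was −0.03. In *miR-21*+/+ tissue the order from the highest FPKM to the lowest was *Mxd4*, *Max*, the *Mlx* row, *Myc*, the *Mxd3* row, *Mxi1*, *Mnt*, *Mycl1*, *Mxd1* and *Mycn*. In *miR-21*-/- tissue *Mycl1* stood sixth, just above *Mxi1*, and the order of the others was the same. *Mycl1* exceeded 55.8% of all named loci in *miR-21*+/+ and 70.5% in *miR-21*-/- tissue. Without values per mouse it cannot be said which neighbours in this order differ, and *Mycl1* and *Mxd1* in *miR-21*+/+ or *Mycl1* and *Mxi1* in *miR-21*-/- tissue lie close together.

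**Figure D2:**
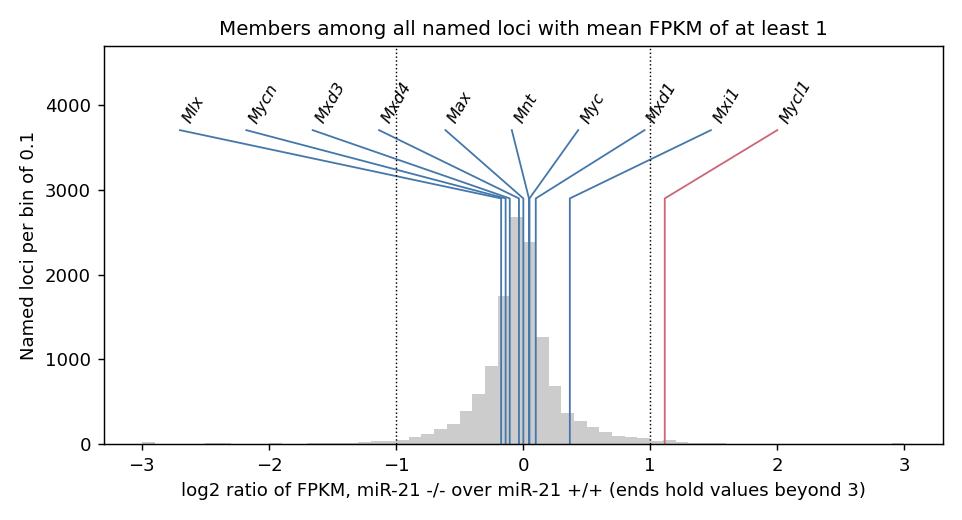
Histogram of the log2 ratio of FPKM (*miR-21*-/- over *miR-21*+/+) of the named loci with a mean of at least 1 FPKM in bins of 0.1, with a line at each member and dotted lines at 2-fold. *Mycl1*, at 1.11, lies past the 2-fold line in the upper tail, *Mxi1* lies at 0.37, and the other members lie in the central peak (*Mycn* is drawn although its mean is under 1 FPKM).

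The summed FPKM over all loci was 759295 in *miR-21*+/+ and 1175603 in *miR-21*-/- tissue, but over rows with a gene name it was 380567 and 355385. Scaling both columns to equal sums over all loci therefore shifts every log2 ratio by −0.63, after which *Mycl1* was still higher in *miR-21*-/- tissue, at 0.48, and all other members were lower. That scaling moves the median of the named loci to −0.66, so the distance between *Mycl1* and the bulk of genes stays as it was. The deposited values were used unscaled. The row holding *Mir21* and its host *Vmp1*, 42.5 and 68.2 FPKM, measures the long host transcript and does not check the genotype.

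The seed match was set against the whole table. Of 892 genes with an 8mer or 7mer-m8 site and a mean of at least 1 FPKM, 7 including *Mycl1* had a log2 ratio as high as that of *Mycl1* (0.785%), as did 1.31% of the 11943 genes without a site. The medians were −0.0081 and −0.03. *Mxd4*, at −0.03, was thus near the middle of the genes with a site and *Mycl1* at their upper end. The study had chosen *Mycl1* for a predicted site and for its ratio, and the length of the 3′ UTR was not matched here. Whether a seed match goes with a higher ratio was not tested. Among other genes that the study weighed as miR-21 targets, *Slc5a8*, *Lbp* and *Pdlim3* had log2 ratios of 1.81, 1.42 and 1.44. Like *Mycl1*, they had been picked from genes more than 2-fold higher in these same data, so their high ratios follow from that choice. *Spry2* and *Pdcd4*, which the study looked up as targets already known, had 0.25 and 0.06.

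Genes next to *Mycl1* did not share its difference at comparable levels. Within 250 kb lay 10 other named loci, 6 of them with a mean of at least 1 FPKM. *Trit1*, which encodes a tRNA-modifying enzyme and begins 13897 bp after the *Mycl1* locus, was at 13.1 FPKM in *miR-21*+/+ and 10.3 FPKM in *miR-21*-/- tissue, a log2 ratio of −0.35. *Mfsd2a*, which encodes a lipid transporter and lies on the other side, was at 3.15 and 2.24 FPKM, a log2 ratio of −0.49. *Cap1*, *Ppt1*, *Ppie* and *Heyl* had log2 ratios of 0.19, −0.05, 0.11 and −0.08. *Cap1* and *Ppt1* are listed with the same interval and overlap there. The 4 loci under 1 FPKM were *Bmp8b*, *Oxct2b*, *Hpcal4* and *Nt5c1a*, with 0.626 FPKM for *Hpcal4* in *miR-21*-/- tissue as their highest value and log2 ratios from 0.69 to 1.42, which rest on very low levels. Among the 7 loci without a gene name in the same window, the highest value was 2.09 FPKM.

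**Figure D3:**
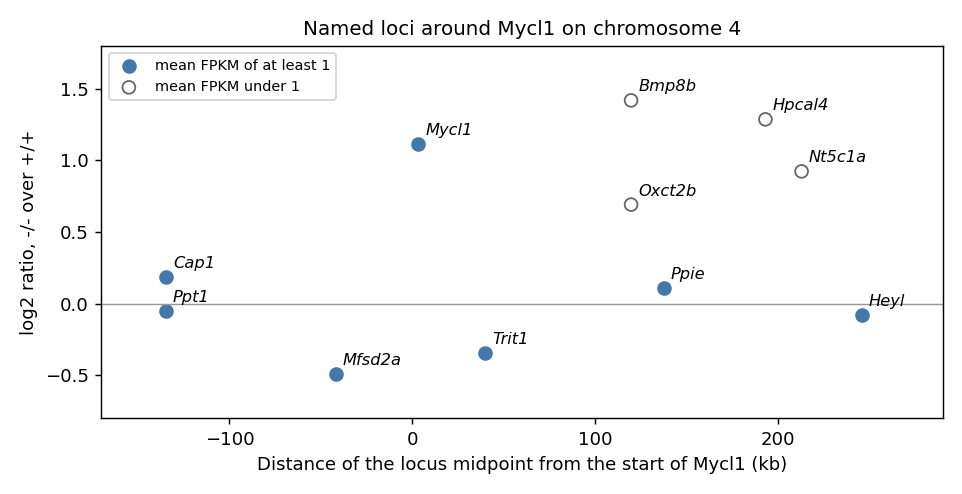
Log2 ratio of FPKM (*miR-21*-/- over *miR-21*+/+) of each named locus within 250 kb against the distance of its midpoint from the *Mycl1* start in kb, with filled symbols for a mean of at least 1 FPKM and open symbols below. *Mycl1* stands at 1.11, while the filled symbols of the other loci lie between −0.49 and 0.19.

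The loci whose pair of levels was most like that of *Mycl1*, by Euclidean distance between the log2 FPKM of both genotypes, were *Fbln7*, *Mmp11*, *Col4a6*, *Paqr6* and 9030025P20Rik, at distances of 0.073 to 0.18. *Fbln7*, which encodes a matrix fibulin, was closest at 4.74 FPKM in *miR-21*+/+ and 10.2 FPKM in *miR-21*-/- tissue. With only 2 values per locus this likeness is a match of levels and no more.

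The further partners of the network were close to even. *Mga*, whose product pairs with MAX, had 6.78 FPKM in *miR-21*+/+ and 7.18 FPKM in *miR-21*-/- tissue, a log2 ratio of 0.08. *Mlxip* and *Mlxipl*, which encode the MLX partners MondoA and ChREBP, had log2 ratios of 0.12 and −0.03. Of the Mondo targets, *Txnip*, a brake on glucose uptake, was at 661 and 686 FPKM with a log2 ratio of 0.05. *Arrdc4*, a related arrestin gene, was at 16.1 and 23.0 FPKM with a log2 ratio of 0.51.

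None of the 15 genes for MYC coactivators reached 1.5-fold, beside 10.8% of all named loci with a mean of at least 1 FPKM. Among loci with more than 5 FPKM in at least 1 genotype, as in these genes, 3.81% were higher and 4.27% lower by as much. For so few genes a count of 0 is near these shares and is no result about cofactors. The coactivator median was 0.05 beside −0.03 for the loci with a mean of at least 1 FPKM. The coactivator genes ran from −0.07 for *Ep400* to 0.16 for *Kat5*, both of the same histone acetyltransferase complex, and the most abundant, the row of *Ccnt1* merged with other names, was at 0.03. None of 8 corepressor and MYC antagonist genes reached 1.5-fold, which is likewise near the share of the named loci. Their median was 0.06, with *Ncor1* the lowest at −0.05, *Bin1* the highest at 0.23, and *Hdac1* the most abundant by the mean of both genotypes, at 37.0 and 40.6 FPKM. Among 12 genes for MYC turnover the median was −0.03, and 2 reached 1.5-fold, both lower in *miR-21*-/- tissue, beside 5.77% of the named loci. These were *Aurka*, a mitotic kinase that stabilizes MYCN, at 3.23 and 1.90 FPKM (log2 ratio −0.76), and *Pim1*, a kinase that acts on MYC, at 20.9 and 12.4 FPKM (−0.75). *Pim1* was named after its value was seen. *Fbxw7*, which encodes the ubiquitin ligase subunit that marks MYC for degradation, was the highest at 0.31, and *Ppp2r5a*, a phosphatase subunit, was the most abundant at 169 and 157 FPKM.

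None of the 29 MYC-activated target genes reached 1.5-fold in either direction, beside 10.8% of all named loci with a mean of at least 1 FPKM. Among loci with more than 5 FPKM in at least 1 genotype, as in most of these genes, 3.81% were higher and 4.27% lower by as much. Whether the count of 0 differs from these shares was not tested. The median log2 ratio of the 29 genes was −0.0055, with 14 above 0 and 15 below. *Ccnd2*, a cyclin gene, was the lowest at 59.5 and 44.3 FPKM (−0.42), *Tert*, for telomerase reverse transcriptase, the highest at 1.52 and 1.85 FPKM (0.28), and *Ldha*, for lactate dehydrogenase, the most abundant at 338 and 329 FPKM (−0.04). For 4 of these genes the row is merged with neighbouring genes. The 5 genes that MYC is known to repress had a median of 0.32, and 1 of them, *Gadd45a*, a stress-response gene, reached 1.5-fold at 6.55 and 10.5 FPKM (0.68), beside 4.99% of the named loci. *Ndrg1* was at 31.5 and 44.4 FPKM (0.49) and *Cdkn1a*, for the cell cycle inhibitor p21, at 12.7 and 15.8 FPKM (0.32), while the inhibitor genes *Cdkn1c* and *Cdkn2b* were at −0.09 and −0.33. All list medians given here move by −0.63 with the scaling to equal sums over all loci, as does the median of the named loci.

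**Figure D4:**
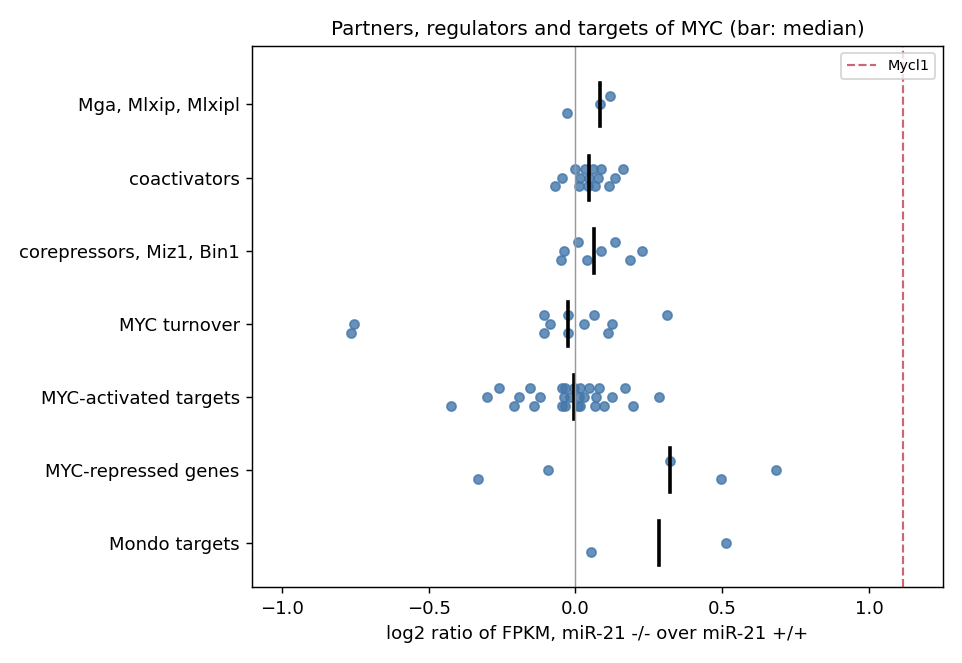
Log2 ratio of FPKM (*miR-21*-/- over *miR-21*+/+) of each gene with a mean of at least 1 FPKM in lists of MYC partners, cofactors, turnover genes and targets, with the list median as a bar and *Mycl1* as a dashed line. The 29 MYC-activated targets lie between −0.42 and 0.28, and no gene of these lists reaches the 1.11 of *Mycl1*.

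The promoters were searched for the E-box CACGTG, which reads the same on both strands, from 250 bases before to 50 bases after each RefSeq gene start (GRCm38.p6). Of the 9 members with an entry, 4 held an E-box, as did 8.09% of the 27025 genes in this RefSeq promoter set, which was not filtered by expression. *Myc* had no entry in the set, so its promoter was not searched. *Mycl1*, listed in RefSeq as *Mycl*, *Mycn*, *Mxd1*, *Mxd3* and *Mxi1* had no CACGTG in these windows. The E-boxes are shown in capitals with 10 bases on each side, on the strand of the gene, for the members that held one.
*Max* (chr12:76962236-76962261, minus strand): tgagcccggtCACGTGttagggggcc
*Mxd4* (chr5:34187914-34187939, minus strand): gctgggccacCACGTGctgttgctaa
*Mnt* (chr11:74830791-74830816, plus strand): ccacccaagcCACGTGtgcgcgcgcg
*Mlx* (chr11:101087240-101087265, plus strand): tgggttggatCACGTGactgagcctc
The 4 genes with these E-boxes, the *Mlx* row among them, had log2 ratios between −0.17 and 0.05. A match of letters does not show that a protein binds there.

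The genotypes also differed in markers of the cells in the gland, and in whole tissue a different share of a cell type and a different amount of RNA per cell cannot be told apart. Of 8 luminal epithelial markers, 7 were higher in *miR-21*-/- tissue, with a median log2 ratio of 0.52, from −0.50 for *Esr1* to 2.30 for *Pgr*, and *Krt19* was the most abundant at 223 and 247 FPKM. All 4 basal markers were higher, *Krt5* at 29.8 and 42.7 FPKM, *Trp63* at 5.74 and 9.30 FPKM, *Oxtr* at 17.5 and 48.7 FPKM, and the row of *Krt14* merged with *Krt16* at 22.9 and 38.7 FPKM. At 1.5-fold or more, 3 of the 8 luminal and 3 of the 4 basal markers were higher, beside 4.99% of the named loci. The summed luminal markers were at 622 FPKM in *miR-21*+/+ and 859 FPKM in *miR-21*-/- tissue, and the basal ones at 75.9 and 139 FPKM. Divided by the luminal sum, the log2 ratio of *Mycl1* was 0.65, and divided by the basal sum it was 0.24, so that the difference was smaller relative to either. The basal sum includes *Oxtr*, at a log2 ratio of 1.47, while *Krt5*, *Trp63* and the *Krt14* row were at 0.52, 0.70 and 0.76. The value of 0.24 thus leans on *Oxtr*, and a sum without it was not computed. The part of the epithelial markers in the *Mycl1* difference was not tested further.

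Markers of the dendritic cells in which L-MYC is known were at 9.16 FPKM or less in *miR-21*+/+ tissue, and 5 of 6 were lower in *miR-21*-/- tissue. Their sum was 18.8 FPKM in *miR-21*+/+ and 15.8 FPKM in *miR-21*-/- tissue, and *Zbtb46*, *Batf3* and *Clec9a* had log2 ratios of −0.40, −0.20 and −0.54. *Xcr1* and *Flt3*, with means under 1 FPKM, were at 0.601 and 0.368 FPKM and at 1.09 and 0.465 FPKM. *Itgax*, which macrophages also express, was at 1.45 and 2.80 FPKM (0.95). Of the 4 dendritic markers with a mean of at least 1 FPKM, only *Itgax* reached 1.5-fold, beside 4.99% of the named loci. All 4 T cell markers were lower by 2-fold or more, beside 2.14% of the named loci, with a sum of 22.1 and 4.56 FPKM. Their log2 ratios were −2.57 for *Cd3e*, −2.42 for *Cd5*, −2.22 for *Cd3g* and −1.92 for *Cd3d*. The same held for 2 of 3 B cell markers, *Ms4a1* at −3.36 and *Cd79b* at −2.09, while the row of *Cd79a* merged with *Arhgef1* was at −0.54, and their sum was 88.2 and 51.8 FPKM. The macrophage sum was even, at 380 and 383 FPKM. Most of it came from the row of *Cd68* merged with *Senp3* and with *Eif4a1* of the MYC target list (−0.02). The part of *Cd68* in that row cannot be read, so the even sum may not describe macrophages. *Csf1r*, *Emr1* and *Mrc1*, with rows of their own, were at −0.04, −0.26 and 0.30.

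Adipocyte markers summed to 10251 and 7471 FPKM with a median of −0.48, with *Cidec* at −0.54, *Adipoq* at −0.50, *Fabp4* at −0.48 and *Plin1* at −0.07, although *Lep* was at 27.7 and 67.9 FPKM (1.29). All 5 skeletal muscle markers were higher in *miR-21*-/- tissue, with a median of 0.89 and a sum of 859 and 1462 FPKM, from 0.66 for *Ckm*, 0.68 for *Acta1*, 0.89 for *Tnnt3* and 0.93 for *Myh4* to 1.86 for *Mb*. All 6 cell cycle markers were lower there, with a median of −0.51 and a sum of 85.4 and 67.0 FPKM, while *Myc* was at 0.05. Their log2 ratios were −0.79 for *Ccnb1* and *Top2a*, −0.63 for *Cdk1*, −0.40 for *Mki67*, −0.33 for *Mcm2* and −0.20 for *Pcna*. At 1.5-fold or more, 3 of these 6 were lower, beside 5.77% of the named loci. All 5 muscle markers and 1 adipocyte marker, *Lep*, were higher by as much, beside 4.99%. No marker of these lists was at 0 in either genotype. Their part in the values of the network was not tested, and in the scaling to equal sums over all loci the epithelial medians of 0.52 and 0.73 would shift by −0.63 like all others.

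**Figure D5:**
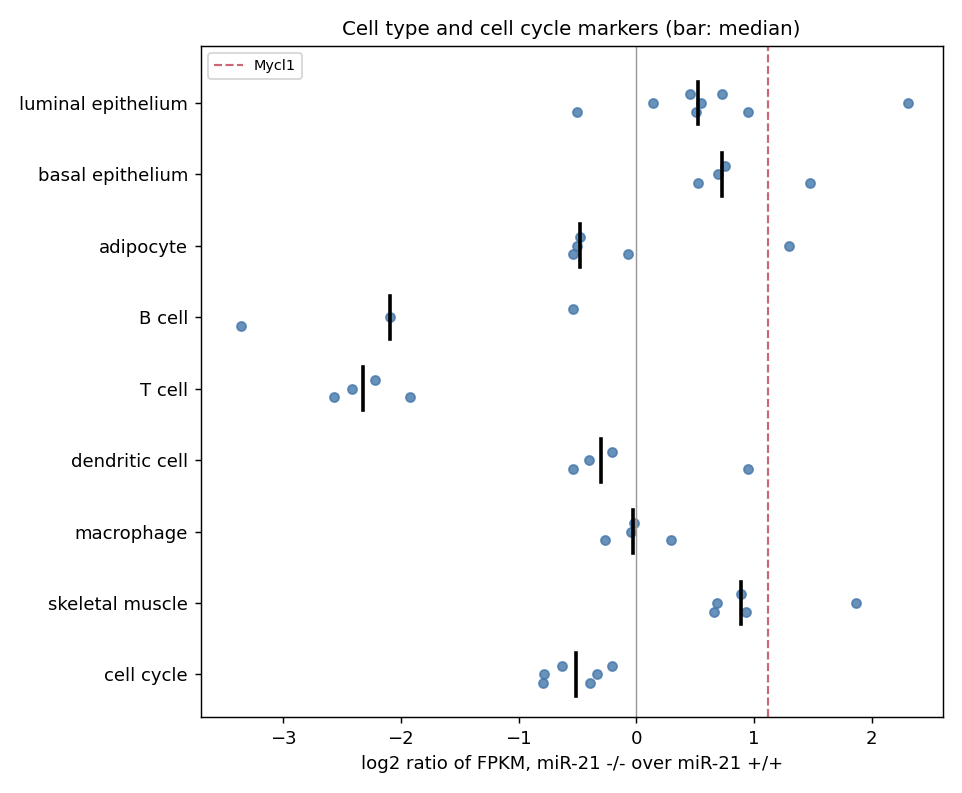
Log2 ratio of FPKM (*miR-21*-/- over *miR-21*+/+) of each cell type or cell cycle marker with a mean of at least 1 FPKM, with the list median as a bar and *Mycl1* as a dashed line. The luminal and basal medians lie at 0.52 and 0.73, those of B and T cells at −2.09 and −2.32, and *Mycl1* at 1.11.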

How the data were processed

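Poly(A) libraries (TruSeq) of 2 mice per genotype were sequenced as single-end reads on an Illumina HiSeq. The submitters' notes name CASAVA and TopHat, and the authors aligned the reads to mm9 and estimated FPKM with Cufflinks. Versions, annotation and normalization options are not given in the sources used here. The deposited table, an output of Cuffdiff, holds 1 FPKM value per genotype from both mice. Its columns of fold changes, test statistics, p-values, q-values and calls were not used. Read counts are not part of it, so the depth is unknown and no interval was computed. The planned limma fit needs a column per mouse and was not run.

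The log2 ratio of the FPKM values was computed without a pseudocount. For each name string the row with the highest mean FPKM was kept, and loci with a mean of at least 1 FPKM were counted at 1.5-fold and 2-fold. Table starts were raised by 1. Sites were searched in the longest 3′ UTR per gene (GENCODE, mm9) and checked against the genome. The calculations were tested on simulated data. The members and lists were chosen with earlier results of these data known. Besides the members, the text names each list's lowest, highest and most abundant gene by mean FPKM (all of lists of 6 or fewer), loci within 250 kb of *Mycl1* and the 5 loci nearest in level. Alternatives were other pseudocounts, scalings, filters and site types. Python 3.11.15, numpy 2.4.6, pandas 2.3.3 and matplotlib 3.10.9 were used. Some items are not reported here.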

Additional observations from a re-analysis of the deposited data

How the results depend on the processing

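No paired analysis was possible because each genotype has a single value, which also left no fit without one of the mice to run. The log2 ratio of *Mycl1*, 1.11, was 0.97 with a pseudocount of 1 FPKM, which is under 2-fold and left 0 members past that limit, and 1.10 with 0.1 FPKM. It was 1.21 with equal sums over named loci and 1.14 with the median of named loci at 0. With equal sums over all loci it was 0.48, the median of the other members −0.63, that of the MYC-activated targets −0.64, and 4 members passed 1.5-fold, all lower, and 0 passed 2-fold. These moves follow from the shift that scaling gives every locus. Relative to summed luminal markers *Mycl1* was at 0.65 and relative to basal markers at 0.24, alternatives chosen after seeing the data. The latter value leans on *Oxtr*, the basal marker with the highest ratio. Of 56 alternatives for other single members and for the seed sites, 9 moved a value by 1.5-fold or more, all from equal sums over all loci.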
